A study of Homo sapiens with 4 samples.

Results

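The genes described here are 33 human genes of antigen processing and presentation, the machinery that cuts proteins into peptides and displays them on MHC molecules at the cell surface. They were chosen by name, as a list of class I and class II genes, their regulators and the stress ligands MICA and MICB. Of the 33, 30 were read by 72 probe sets that carry the gene's symbol alone, out of 19775 genes and 54675 probe sets on the array. PSME2 was not read because its probe set carries several symbols, and neither LNPEP nor IFI30 had a probe set with 1 symbol. The arrays, Affymetrix HG-U133 Plus 2.0, held RNA of 2 human lung adenocarcinoma cell lines, CL1-0 and its more invasive subline CL1-5. CL1-0 carried an AK4 vector or a control vector, and CL1-5 carried an AK4 shRNA or a non-silencing shRNA. AK4 is a mitochondrial adenylate kinase, so the question was what follows from adding it to CL1-0 and from depleting it in CL1-5. All 4 cultures were stably transduced and selected with puromycin, and the labels say nothing of clones or of separate cultures. Each group was 1 array, so no difference below has a replicate error, a test or a p-value.

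As background, class I molecules are a heavy chain paired with beta-2-microglobulin, and they show peptides made by the proteasome to CD8 T cells. The TAP transporter carries these peptides into the endoplasmic reticulum, where tapasin loads them and ERAP aminopeptidases trim them. Interferon-gamma induces most of this machinery together, swaps catalytic subunits of the proteasome for immunoproteasome subunits, and switches on class II molecules through the transactivator CIITA. Lung epithelial cells show class I constitutively, and tumour cells often lose part of it.

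Signals were scaled to a common trimmed mean, and a floor of 6.94 was set, with signals under it raised to it. From 56.6% to 63.4% of the probe sets on an array exceeded it. AK4 itself gives a partial check of the labels. In CL1-5 its 4 probe sets read lower in the shRNA culture, by log2 ratios of -1.3 to -0.88. In CL1-0 they were no higher on the array labelled AK4 vector, at -0.25 to -0.05. Whether these probe sets detect the transcript of the vector is not known, so they cannot settle that label. The wording "labelled AK4 vector" is therefore kept, and each CL1-0 direction rests on that label. The 3' to 5' signal ratio of the actin control, a measure of RNA or labelling quality, was 1.61 and 1.34 on the CL1-5 arrays, against 6.54 and 6.04 on the CL1-0 arrays. The labelled cell type is the type II alveolar cell, of whose 9 marker genes 6 to 8 lay above the floor on each array. SLC34A2, a phosphate transporter that marks these cells, was below it on all 4. Of all 19775 genes, 14677 lay above the floor on 1 or both CL1-0 arrays, and 15314 on 1 or both CL1-5 arrays. These marker counts are thus no check of that label. LAMP3 had 160 and 210 in CL1-0 but 4.66 and 5.08 in CL1-5, while LPCAT1 had 127 and 101, against 361 and 349. Of 5 epithelial markers, 4 and 2 lay above the floor on the CL1-0 arrays and 3 on each CL1-5 array.

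Some of these genes share short motifs in their regulatory DNA, shown here as a description. No motif was found for every gene. Promoter windows from 250 bases before to 50 bases after the annotated gene start were taken from RefSeq on build GRCh38.p14. There were 39 windows for 28 of the 33 genes, among 35116 windows of all genes. The interferon-stimulated response element (ISRE, here GAAA, any 2 bases and GAAA again, on either strand) was found for 12 genes and in 3.57% of all windows. An X2 box (TGACG) followed on the same strand by a Y box (ATTGG) 20 to 30 bases on, a spacing chosen after the windows were seen, lay in 0.447% of all windows and in those of HLA-B, HLA-C and B2M. The boxes were 25 bases apart in HLA-B and HLA-C and 26 apart in B2M. The 3 stretches below run 5′ to 3′ along the gene's strand, with X2, Y and ISRE matches on either strand in capitals. HLA-B lies at chr6:31357215-31357294 on the minus strand, HLA-C at chr6:31272128-31272207 on the minus strand, and B2M at chr15:44711367-44711486 on the plus strand.
HLA-B: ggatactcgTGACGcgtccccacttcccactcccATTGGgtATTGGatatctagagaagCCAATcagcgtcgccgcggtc
HLA-C: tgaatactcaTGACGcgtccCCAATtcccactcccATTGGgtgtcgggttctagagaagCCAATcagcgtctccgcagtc
B2M: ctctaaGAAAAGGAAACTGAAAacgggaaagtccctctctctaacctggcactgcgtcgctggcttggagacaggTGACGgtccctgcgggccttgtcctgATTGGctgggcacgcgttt

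The ISRE is shown in 4 further genes whose signals are described below, with its letters in capitals. TAP1 lies at chr6:32853755-32853854, TAPBP at chr6:33314059-33314138 and PSMB8, at 1 of its 2 annotated starts, at chr6:32844008-32844087, all on the minus strand. PSME1 lies at chr14:24136164-24136243 on the plus strand. In TAP1, TAPBP and B2M the matches overlap in 1 longer run, while PSMB8 and PSME1 hold the same letters once.
TAP1: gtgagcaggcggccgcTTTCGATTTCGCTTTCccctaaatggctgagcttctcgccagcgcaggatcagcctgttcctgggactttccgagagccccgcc
TAPBP: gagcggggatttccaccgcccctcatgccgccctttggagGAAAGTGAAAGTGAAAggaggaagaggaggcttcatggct
PSMB8: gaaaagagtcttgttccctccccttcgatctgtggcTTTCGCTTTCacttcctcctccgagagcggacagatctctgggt
PSME1: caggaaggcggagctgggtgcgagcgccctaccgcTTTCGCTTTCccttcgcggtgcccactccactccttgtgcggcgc

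**Figure D1:**
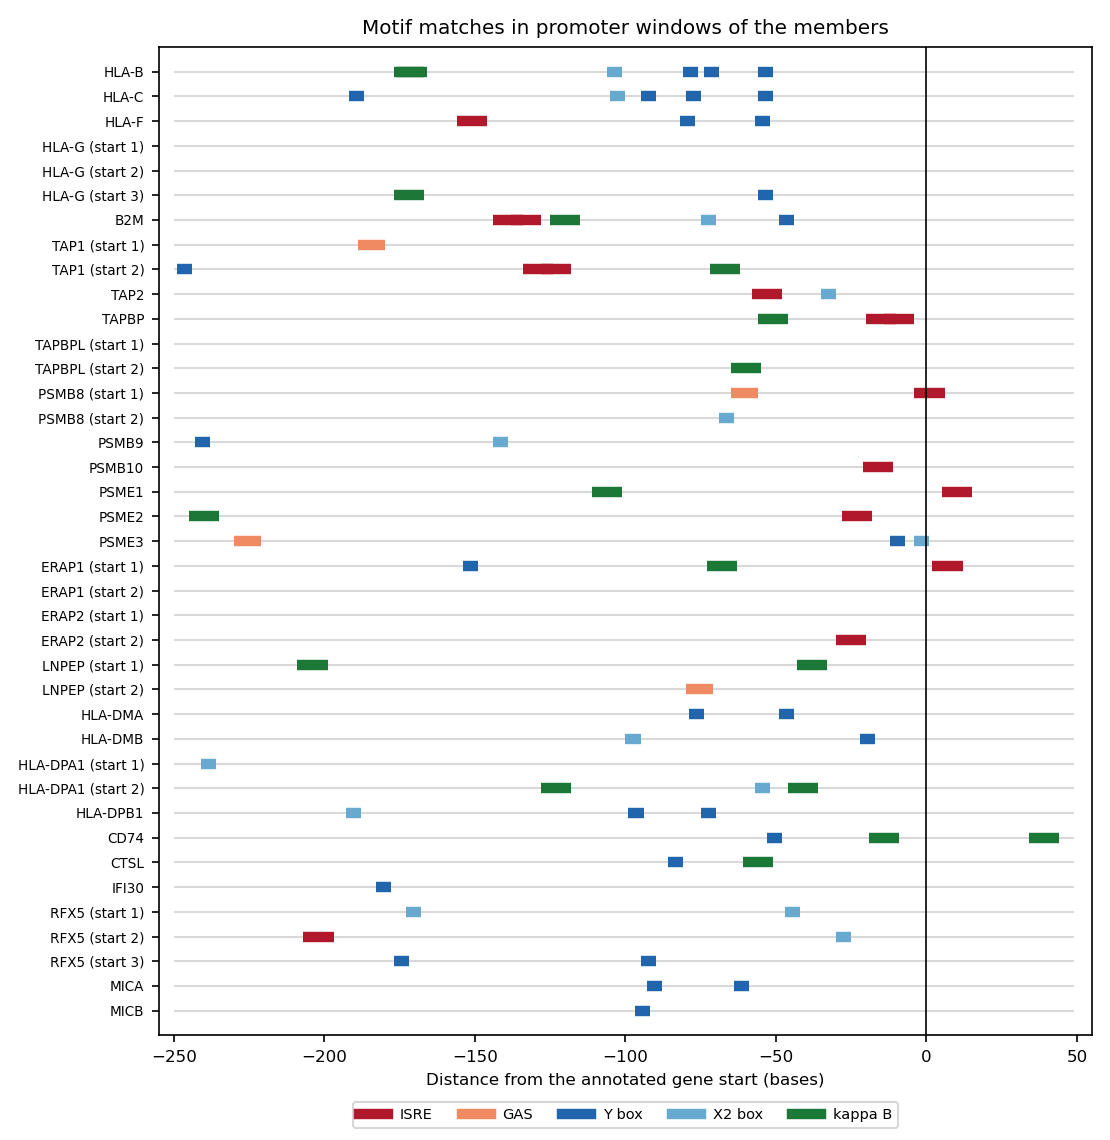
Positions of motif matches (coloured bars) in the promoter windows of the listed genes, by distance in bases from the annotated gene start (black line at 0). Motifs are ISRE, gamma-activated site (GAS), Y box, X2 box and kappa B; several rows of a gene are its alternative starts. HLA-B, HLA-C and B2M show X2 and Y boxes close together upstream of the start.

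Of the other motifs, the gamma-activated site TTCNNNGAA was found for 4 genes and in 7.66% of all windows. The kappa B motif, here GGG, any 3 bases, T, any base and CC, was found for 13 genes and in 21.5% of windows, the X2 box alone for 11 genes and in 24.6%, and the Y box alone for 18 genes and in 34.6%. Short motifs of 5 letters are thus common in promoters of any kind. Some genes have several windows, while these shares count single windows. By window, the ISRE lay in 12 of the 39, the gamma-activated site in 4 and kappa B in 13. The X2 box lay in 13 of the 39 and the Y box in 18. The divergent neighbours TAP1 and PSMB9, whose annotated starts lie 487 bases apart, have windows that overlap by 13 bases. A match is a string of letters and not a site shown to be bound.

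Of the 30 genes read, 23 were above the floor on all 4 arrays. ERAP2, an aminopeptidase, and HLA-DRA, the chain shared by HLA-DR molecules, were below it on all 4. A gene was read from the probe set with the highest mean log2 signal, and a gene counted as measured in a comparison where 1 of its 2 arrays or both lay above the floor. The plot of signals shows the class I chains far above the floor on every array and the class II genes from below it to a few times above it.

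**Figure D2:**
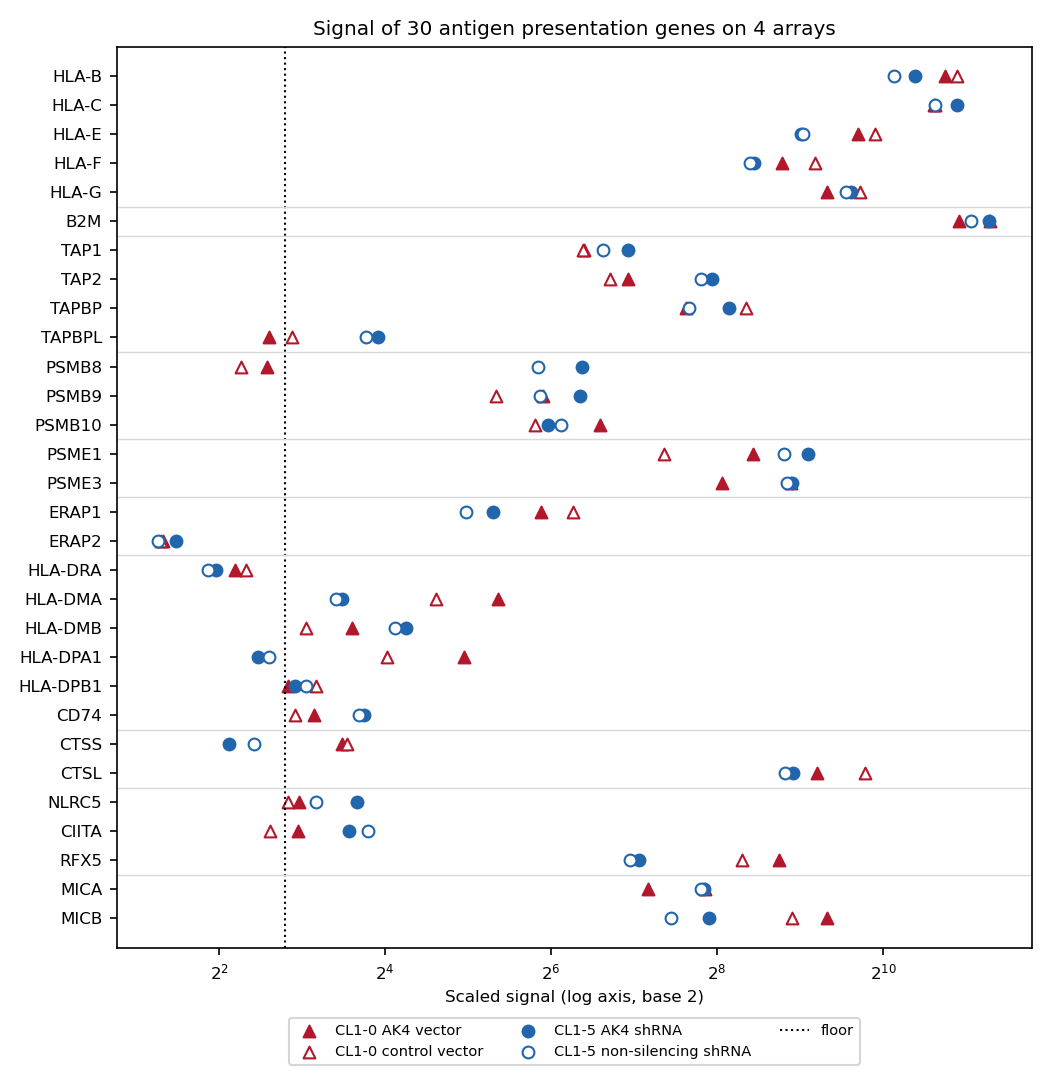
Scaled signal of the 30 genes (log axis) on the 4 arrays: AK4 vector and control vector in CL1-0 (filled and open triangles), AK4 shRNA and non-silencing shRNA in CL1-5 (filled and open circles). The dotted line is the floor of 6.94; PSMB8 lies below it on both CL1-0 arrays and at 57.3 or above on both CL1-5 arrays.

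In CL1-0, the array labelled AK4 vector differed from the control vector array in opposite directions within the list. Only 1 of 27 measured genes, PSME1, was at least 2-fold higher, beside 3.22% of all 14677 genes measured. None was at least 2-fold lower, beside 1.17% of all genes. At a log2 ratio of 0.32 or more, a smaller threshold, 8 were higher, beside 26.7% of all genes, and 9 were lower, beside 17.6%. The 8 were PSMB9, PSMB10, PSME1, HLA-DMA, HLA-DMB, HLA-DPA1, RFX5 and MICB. The 9 were B2M, HLA-F, HLA-G, TAPBP, PSME3, ERAP1, HLA-DPB1, CTSL and MICA. The genes' median log2 ratio was -0.01, beside 0.05 over all genes, whose 5th to 95th percentiles ran from -0.65 to 0.88.

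In CL1-5, the AK4 shRNA array differed from the non-silencing array by small amounts, mostly upward. No gene of the list was at least 2-fold higher, beside 0.0914% of all 15314 genes measured, and none was at least 2-fold lower, beside 0.0131%. At that smaller threshold, 6 of 26 were higher, beside 6.64% of all genes, and none was lower, beside 5.84%. These 6 were TAPBP, PSMB8, PSMB9, NLRC5, ERAP1 and MICB. The median log2 ratio was 0.13 over the list, where 22 of 26 genes were above 0, and -0.00 over all genes, where 7604 were above 0. Taking the mean of all probe sets of a gene left 18 of 27 genes above 0. Probe sets for 1 gene disagreed by a pooled SD of 0.41 in their log2 ratios in the CL1-0 comparison and of 0.22 in the CL1-5 comparison, which is not a replicate error.

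**Figure D3:**
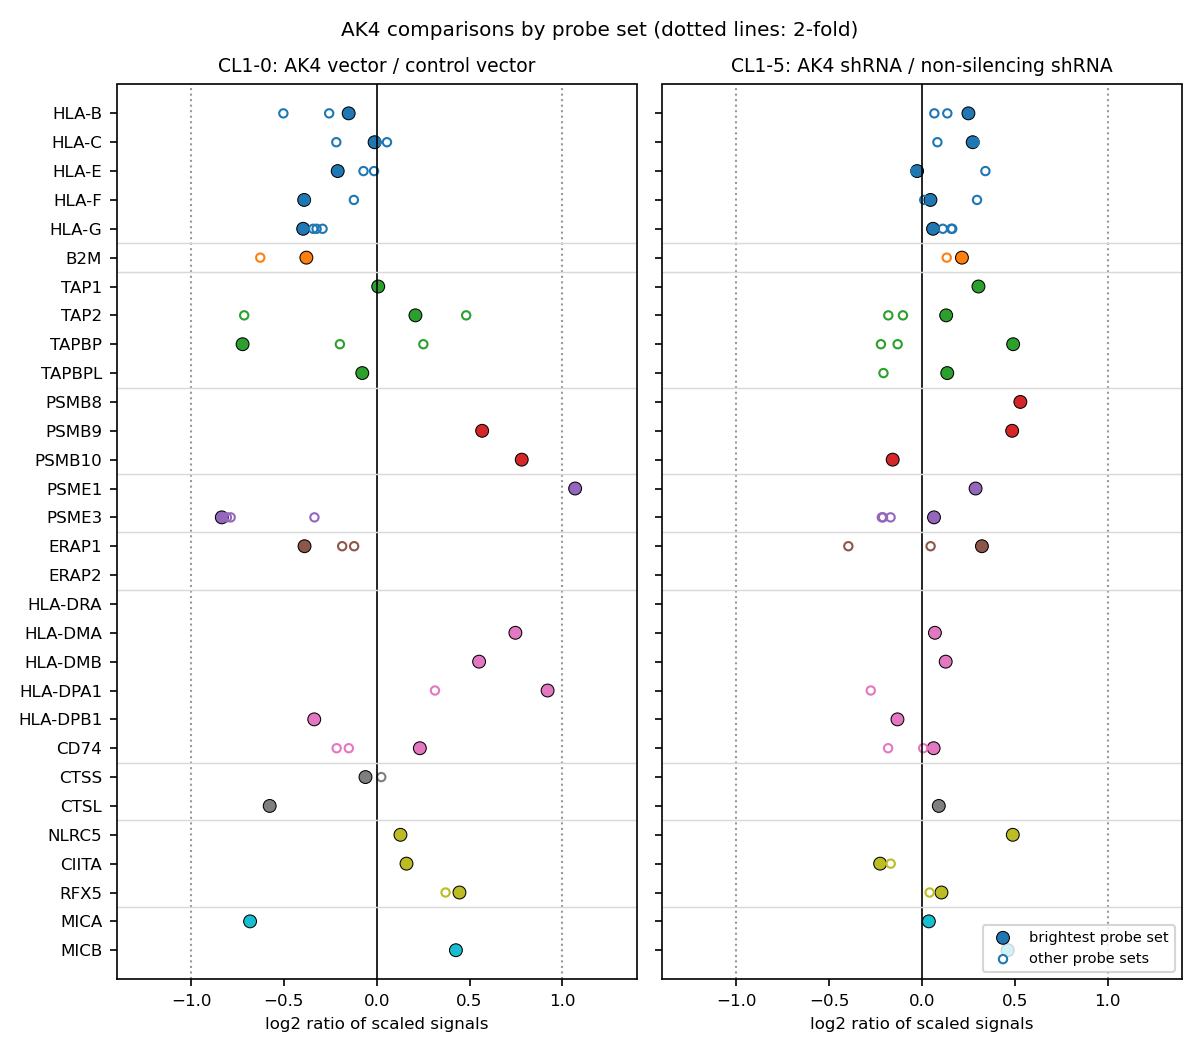
Log2 ratio of scaled signals for each measured probe set of each gene, for AK4 vector over control vector in CL1-0 (left) and AK4 shRNA over non-silencing shRNA in CL1-5 (right). Filled points are the brightest probe set of a gene, open points its other probe sets, colours mark roles and dotted lines mark 2-fold; PSME1 in CL1-0 is the single point past 2-fold.

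Among the class I chains, B2M and HLA-B were a little higher with AK4 shRNA and a little lower with the label AK4 vector. HLA-C was higher with AK4 shRNA and near 0 in CL1-0, and HLA-E, HLA-F and HLA-G were lower with the label AK4 vector and near 0 in CL1-5. B2M, the light chain that every class I molecule needs, had a signal of 1928 on the array labelled AK4 vector, against 2507 on the control vector array, and 2484 with AK4 shRNA, against 2140 with non-silencing shRNA. Its log2 ratios were -0.38 in CL1-0 and 0.21 in CL1-5. A second probe set read -0.63 and 0.13, so both probe sets pointed the same way in each line.

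HLA-B, a classical heavy chain, had signals of 1711 with the label AK4 vector, against 1900 with control vector, and 1334 with AK4 shRNA, against 1122 with non-silencing shRNA. HLA-C, the other classical chain read, had 1569 against 1582 in that CL1-0 pair, and 1904 with AK4 shRNA, against 1576 with non-silencing shRNA. The HLA-B log2 ratios were -0.15 and 0.25, and those of HLA-C were -0.01 and 0.27. Both chains were thus higher with AK4 shRNA by amounts close to the SD between probe sets, and HLA-C hardly differed between the CL1-0 arrays.

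HLA-F, a nonclassical chain found on activated lymphocytes, had signals of 441 on the array labelled AK4 vector, against 579 on the control vector array, and 348 with AK4 shRNA, against 337 with non-silencing shRNA. HLA-G, best known from the placenta, had 642 against 845 in that CL1-0 pair, and 782 with AK4 shRNA, against 750.1 with non-silencing shRNA. HLA-E, the ligand of the NK receptor NKG2A, had 829 against 959 in the CL1-0 pair, and 515 with AK4 shRNA, against 525 with non-silencing shRNA. All 3 were lower on the array labelled AK4 vector, with log2 ratios of -0.39, -0.40 and -0.21 in the order given. With AK4 shRNA they lay near 0, at 0.05, 0.06 and -0.03.

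Of the 19 measured class I chain probe sets, 18 were below 0 in the CL1-0 comparison, with a median of -0.26, and 17 were above 0 in the CL1-5 comparison, with a median of 0.14. By gene, all 6 chains were below 0 in CL1-0, although HLA-C turned to just above 0 under quantile and loess scaling, and 5 of 6 were above 0 in CL1-5 under each scaling. These probe sets are not independent readings. Of 17 for heavy chains, 15 carry the suffix _x_at, which marks possible hybridisation to related transcripts. The pair without such a suffix, 1 for HLA-E and 1 for HLA-F, read -0.01 and -0.12 in CL1-0 and 0.34 and 0.30 in CL1-5. The HLA-F probe set of this pair lay close to the floor, with signals of 9.39 to 11.5, against 130 to 164 for that of HLA-E.

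Tapasin (TAPBP) bridges the transporter and the class I chain, and its brightest probe set read 197 on the array labelled AK4 vector, against 325 on the control vector array, and 283 with AK4 shRNA, against 201 with non-silencing shRNA. The log2 ratios were -0.72 in CL1-0 and 0.49 in CL1-5, and 1.80% of genes measured in CL1-5 had a ratio above that 0.49. Its other probe sets, both dimmer, read -0.20 and 0.25 in CL1-0 and -0.22 and -0.13 in CL1-5, so the gene's mean over probe sets came to -0.22 and 0.05.

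TAP1 and TAP2 form the peptide transporter. TAP1 had a signal of 84.2 on the array labelled AK4 vector, against 83.7 on the control vector array, and 122 with AK4 shRNA, against 98.6 with non-silencing shRNA. TAP2 had 121 against 105 in that CL1-0 pair, and 244 with AK4 shRNA, against 223 with non-silencing shRNA. TAP1 differed by 0.30 on the log2 scale in CL1-5 and by 0.01 in CL1-0. For TAP2 the ratios were 0.13 in CL1-5 and 0.21 in CL1-0, with other probe sets on both sides of 0 in CL1-0. In CL1-5 its other measured probe sets read -0.10 and -0.18, so no direction holds over them there. TAPBPL, a tapasin relative that edits peptides, had 6.08 on the array labelled AK4 vector, under the floor, against 7.32 on the control vector array, and read 15.0 with AK4 shRNA, against 13.7 with non-silencing shRNA. Over the 9 measured loading probe sets of CL1-5, 4 were above 0 and 5 below, against 4 of 4 genes above 0 by brightest probe set.

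The immunoproteasome subunits differed in their pattern. PSMB8 (LMP7) had 82.7 with AK4 shRNA, against 57.3 with non-silencing shRNA, a log2 ratio of 0.53, and was under the floor in CL1-0 at 5.97 on the array labelled AK4 vector and 4.79 on the control vector array. PSMB9 (LMP2) had 60.01 on the array labelled AK4 vector, against 40.5 on the control vector array, and 81.4 with AK4 shRNA, against 58.1 with non-silencing shRNA. Its ratios were 0.57 in CL1-0 and 0.49 in CL1-5, so it was on the higher side in both comparisons. PSMB10 (MECL-1) had 96.1 on the array labelled AK4 vector, against 55.9 on the control vector array, and 62.3 with AK4 shRNA, against 69.5 with non-silencing shRNA. PSMB10 was therefore higher in CL1-0, at 0.78, and lower in CL1-5, at -0.16. Each of these genes was read by a single probe set.

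The constitutive catalytic subunits that the immunoproteasome subunits replace were below 0 in both comparisons, beside 23.6% of all genes measured in both. PSMB5, PSMB6 and PSMB7 had log2 ratios of -0.51, -0.08 and -0.59 in CL1-0, and of -0.25, -0.26 and -0.10 in CL1-5. PSMB6 in CL1-0 and PSMB7 in CL1-5 differed by less than the pooled SD between probe sets, 0.41 and 0.22. Whether subunits were exchanged was not tested.

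PA28 caps open the proteasome and favour short peptides. PSME1, the alpha subunit of the interferon-inducible cap, had 345 on the array labelled AK4 vector, against 164 on the control vector array, and 548 with AK4 shRNA, against 449 with non-silencing shRNA. The ratio was 2.10-fold in CL1-0 and 1.22-fold in CL1-5. In CL1-0 it was past 2-fold under all 7 alternatives. PSME1 was read by 1 bright probe set, so alternatives that raise the floor or change the choice of probe sets could not move it. PSME3, the nuclear PA28 gamma, which is not part of that cap, had 266 on the array labelled AK4 vector, against 474 on the control vector array, and 478 with AK4 shRNA, against 457 with non-silencing shRNA. All 4 of its probe sets were lower in CL1-0, from -0.83 to -0.34. In CL1-5 the brightest read 0.06 and the others -0.22 to -0.17, so no direction holds over its probe sets there.

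ERAP1 trims peptides in the endoplasmic reticulum to the length that class I molecules hold. Its brightest probe set read 58.7 on the array labelled AK4 vector, against 76.9 on the control vector array, and 39.4 with AK4 shRNA, against 31.5 with non-silencing shRNA. The ratios were -0.39 and 0.32. In CL1-0 its other probe sets were also below 0, at -0.12 and -0.19, while in CL1-5 they read 0.05 and -0.40. ERAP2, its partner, stayed below the floor in all 5 of its probe sets, at 2.33 to 5.43.

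Genes of class II molecules had signals of 3.65 to 41.0 in their brightest probe sets. HLA-DRA was under the floor on all 4 arrays, and HLA-DMA, HLA-DMB, HLA-DPB1 and CD74 were above it on all 4. Of 11 leukocyte markers read, 4 and 3 lay above the floor on the CL1-0 arrays and 7 and 8 on the CL1-5 arrays, and their summed signal was 117 and 89.8 in CL1-0 and 161 and 163 in CL1-5. The defining marker PTPRC was below the floor on all 4. In bulk RNA, fewer cells with a transcript and less of it per cell cannot be told apart. HLA-DMA, 1 chain of the HLA-DM peptide editor, had 41.0 on the array labelled AK4 vector, against 24.4 on the control vector array, and 11.2 with AK4 shRNA, against 10.6 with non-silencing shRNA. HLA-DMB, its partner chain, had 12.1 against 8.27 in that CL1-0 pair, and 19.01 with AK4 shRNA, against 17.4 with non-silencing shRNA. The HLA-DM chains were on the higher side on the array labelled AK4 vector, at 0.75 and 0.55, and differed little in CL1-5, at 0.07 and 0.13.

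HLA-DPA1, the alpha chain of HLA-DP, had 30.9 on the array labelled AK4 vector, against 16.3 on the control vector array, a ratio of 0.92, and 5.51 with AK4 shRNA and 6.05 with non-silencing shRNA, both under the floor. A second probe set read 0.31 in CL1-0. HLA-DPB1, its beta chain, had 7.08 against 8.95 in the CL1-0 pair, and 7.56 with AK4 shRNA, against 8.28 with non-silencing shRNA. The 2 chains of 1 molecule thus pointed in opposite directions in CL1-0, with HLA-DPB1 close to the floor. CD74, the invariant chain that guards the class II groove, lay between 7.55 and 13.4 in its brightest probe set, and its probe sets lay on both sides of 0 in CL1-0.

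Class II peptides are cut by cathepsins in endosomes. Cathepsin L (CTSL), which also processes the invariant chain in thymic epithelium, had 591 on the array labelled AK4 vector, against 881 on the control vector array, and 481 with AK4 shRNA, against 452 with non-silencing shRNA. Its ratios were -0.58 and 0.09. Cathepsin S (CTSS), its counterpart in professional antigen-presenting cells, had 11.2 against 11.7 in the CL1-0 pair, and 4.36 with AK4 shRNA and 5.36 with non-silencing shRNA, both under the floor.

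The regulators include NLRC5, the transactivator of class I genes. NLRC5 had 7.76 on the array labelled AK4 vector, against 7.11 on the control vector array, and 12.6 with AK4 shRNA, against 8.99 with non-silencing shRNA. The CL1-5 ratio was 0.49, but all 4 signals lay close to the floor, and a floor at the 60th percentile left it unmeasured. CIITA, the class II transactivator, had 7.75 on the array labelled AK4 vector, against 6.12 on the control vector array, and 11.8 with AK4 shRNA, against 13.9 with non-silencing shRNA. RFX5, a subunit of the factor that binds the X box of MHC promoters, had 429 on the array labelled AK4 vector, against 315 on the control vector array, and 133 with AK4 shRNA, against 124 with non-silencing shRNA. RFX5 was on the higher side in CL1-0 in both probe sets, at 0.45 and 0.37, and near 0 in CL1-5, at 0.10 and 0.04.

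MICA and MICB are stress-induced ligands of the activating receptor NKG2D on NK and T cells. MICA had 144 on the array labelled AK4 vector, against 231 on the control vector array, and 230.0 with AK4 shRNA, against 224 with non-silencing shRNA. MICB had 640.0 on the array labelled AK4 vector, against 476 on the control vector array, and 240.1 with AK4 shRNA, against 174 with non-silencing shRNA. These close relatives pointed in opposite directions in CL1-0, at -0.68 and 0.43. In CL1-5 MICB was 1.38-fold higher with AK4 shRNA and MICA 1.03-fold. Each was read by 1 probe set.

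The AK4 comparisons use different arrays, so their values can be set side by side. Of 25 genes measured in both, 11 were lower on the array labelled AK4 vector and higher with AK4 shRNA, beside 20.3% of 13735 genes. These were HLA-B, HLA-C, HLA-F, HLA-G, B2M, TAPBP, TAPBPL, PSME3, ERAP1, CTSL and MICA. Another 10 were on the higher side in both, beside 30.4% of all genes, 2 were higher in CL1-0 and lower in CL1-5, beside 25.8%, and 2 were lower in both, beside 23.6%. The count of 11 stayed at 9 to 11 under 6 of the 7 alternatives, beside 17.9% to 23.3% of all genes, and was 5 of 16, beside 19.8%, once _x_at and _s_at probe sets, which hold most class I chains, were left out. Several of the 11 ratios are close to 0. The array labelled AK4 vector had no more signal in the AK4 probe sets, which may not detect the transcript of the vector.

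**Figure D4:**
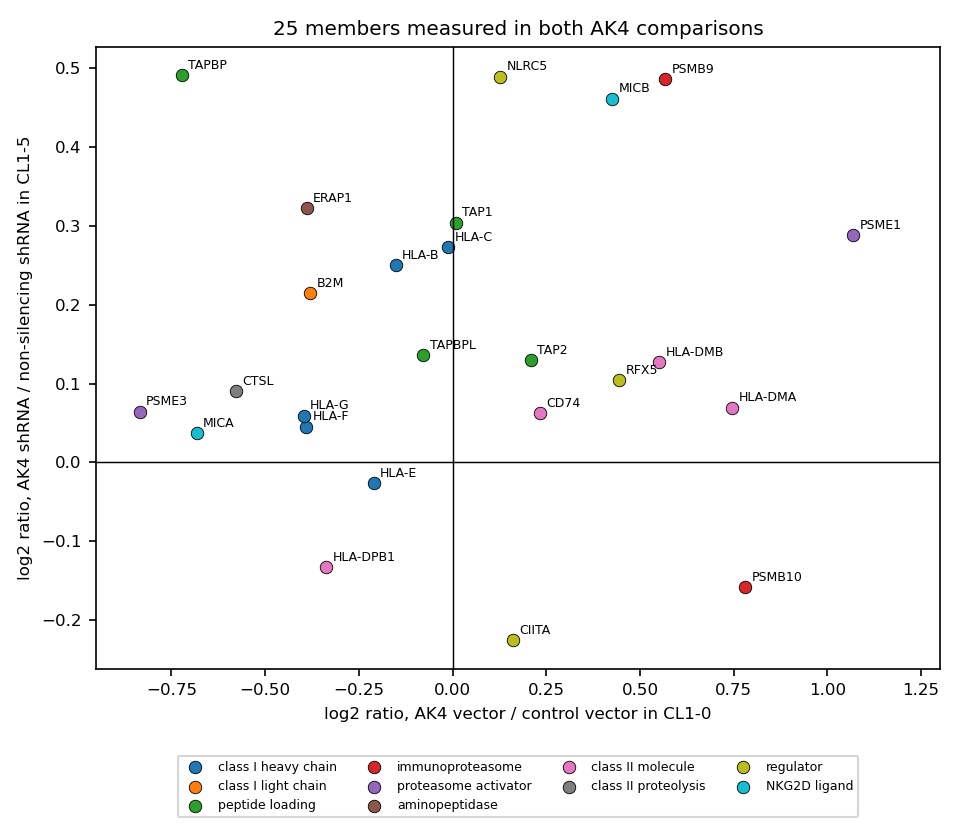
Log2 ratio for AK4 vector over control vector in CL1-0 (x axis) and for AK4 shRNA over non-silencing shRNA in CL1-5 (y axis), for the 25 genes measured in both, coloured by role. The upper left quadrant holds 11 genes, 4 of them class I heavy chains; the y axis spans a narrower range than the x axis, and the CL1-0 ratios of TAPBPL and CIITA are bounds because 1 array is under the floor.

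With signals above 100 on both arrays of a pair, a threshold chosen after the data were seen, 14 genes of the list remained. They are a subset of the genes already counted and add no separate evidence. Of these, 10 were below 0 in CL1-0, beside 49.7% of 5024 such genes, and 13 were above 0 in CL1-5, beside 52.5% of 5157 such genes. Their median ratio in CL1-5 was 0.12, and the 95th percentile of bright genes was 0.29. These counts rest on the brightest probe set of each gene, which for the HLA chains ends in _x_at. In CL1-5 the other measured probe sets of PSME3, TAP2 and TAPBP were all below 0. Those of HLA-B, HLA-C, HLA-F, HLA-G, B2M and RFX5 were above 0, and those of HLA-E lay on both sides.

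Ratios were also set beside the ISRE. In CL1-5 the 10 measured genes with an ISRE in a window had a median of 0.25, from -0.16 for PSMB10 to 0.53 for PSMB8. The 13 without one had a median of 0.09, from -0.13 for HLA-DPB1 to 0.49 for PSMB9. The ISRE run of TAP1 lies between the starts of TAP1 and PSMB9 but outside the PSMB9 window, so PSMB9 counted as without one. MICB, also without one, read 0.46. The ranges overlap over most of their length, and genes with and without the motif are both among the 6 past the smaller threshold. In CL1-0 the medians were 0.01 with the ISRE (9 genes) and -0.04 without it (14 genes).

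Comparing the lines asks how the more invasive CL1-5 differs from CL1-0, and each line has 2 arrays that differ in construct and are not replicates. These comparisons use the same arrays as those of AK4 and are not independent of them. PSMB8, TAP2 and PSME1 were higher in CL1-5, and HLA-DMA, HLA-DPA1, RFX5 and MICB were lower. In CL1-5 with non-silencing shRNA over CL1-0 with control vector, 4 of 28 genes were at least 2-fold higher, beside 17.1% of all genes, and 5 were at least 2-fold lower, beside 14.2%. In CL1-5 with AK4 shRNA over CL1-0 labelled AK4 vector, 3 were higher, beside 14.7%, and 4 were lower, beside 14.8%. These shares are near those of all genes. In all 4 pairs of a CL1-5 and a CL1-0 array, 1 gene was at least 2-fold higher, beside 10.7% of genes, and 3 were at least 2-fold lower, beside 9.6%. The actin 3' to 5' ratio given above also separates the lines, and its part in these differences was not tested.

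PSMB8 was the gene higher in all 4 pairs. Its signals of 82.7 and 57.3 on the CL1-5 arrays stood against 5.97 and 4.79 on the CL1-0 arrays, both under the floor. For this probe set and scaling, CL1-5 was at least 8.25-fold higher between the control arrays and at least 11.9-fold higher between the AK4 arrays. PSMB9, its neighbour in the MHC region, differed by 0.52 and 0.44 on the log2 scale in these comparisons, below 2-fold. PSMB10, at 0.31 and -0.63, had no common direction. The 3 inducible subunits thus shared neither 1 direction nor 1 size between the lines. Under a higher floor, at the 60th percentile, the PSMB8 bounds were 1.77 and 2.30 on the log2 scale.

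TAP2 had 244 and 223 on the CL1-5 arrays, against 121 and 105 on the CL1-0 arrays, and a range of 0.88 to 1.22 over the 4 pairs. A dimmer TAP2 probe set gave 2.09 and 1.43 in both comparisons, and another gave -0.24 and 0.37. TAP1 was on the same side, at 0.24 and 0.53, below 2-fold. PSME1 had 548 and 449 on the CL1-5 arrays, against 345 and 164 on the CL1-0 arrays, and its range of 0.38 to 1.74 shows how much the choice of CL1-0 array matters. The brightest TAPBP probe set turned direction with that choice, at -0.69 between the control arrays and 0.52 between the AK4 arrays. Its other probe sets, both dimmer, were higher in CL1-5 in both comparisons. They gave 1.54 and 1.28 between the control arrays and 1.52 and 0.90 between the AK4 arrays.

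RFX5 was lower in CL1-5, with 133 and 124 there, against 429 and 315 in CL1-0, or -1.80 to -1.2 over the 4 pairs. Its second probe set gave -0.07 and -0.40. HLA-DMA was lower as well, with 11.2 and 10.6 in CL1-5, against 41.0 and 24.4 in CL1-0, while its partner HLA-DMB was higher, with 19.01 and 17.4 in CL1-5, against 12.1 and 8.27 in CL1-0. Under a higher floor, at the 60th percentile, the ratios between the control arrays were -0.54 for HLA-DMA and 0.05 for HLA-DMB, both short of 2-fold. HLA-DPA1 was under the floor in CL1-5 and at 30.9 and 16.3 in CL1-0, at least 2.35-fold lower in CL1-5 between the control arrays. Its second probe set gave 0.17 and -0.42. MICB had 240.1 and 174 in CL1-5, against 640.0 and 476 in CL1-0, and -1.88 to -0.99 over the 4 pairs, just short of 2-fold in 1 of them. ERAP1 had 39.4 and 31.5 in CL1-5, against 58.7 and 76.9 in CL1-0, and was past 2-fold only between the control arrays, at -1.29. Its other probe sets gave 0.91 and 0.22 there, so the direction rests on the brightest. As deposited without rescaling, RFX5, HLA-DMA and MICB stayed on the lower side in CL1-5, at -0.96 to -0.33 over both comparisons.

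For the class I chains the line difference depended on the scaling. Between the control arrays all 6 were lower in CL1-5, with a median of -0.49, but 3 of 6 were lower under quantile and loess scaling and none as deposited, where the median was 0.38. Between the AK4 arrays 3 were higher and 3 lower, with a median of -0.03. No direction between the lines can be given for the class I chains from these arrays.

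**Figure D5:**
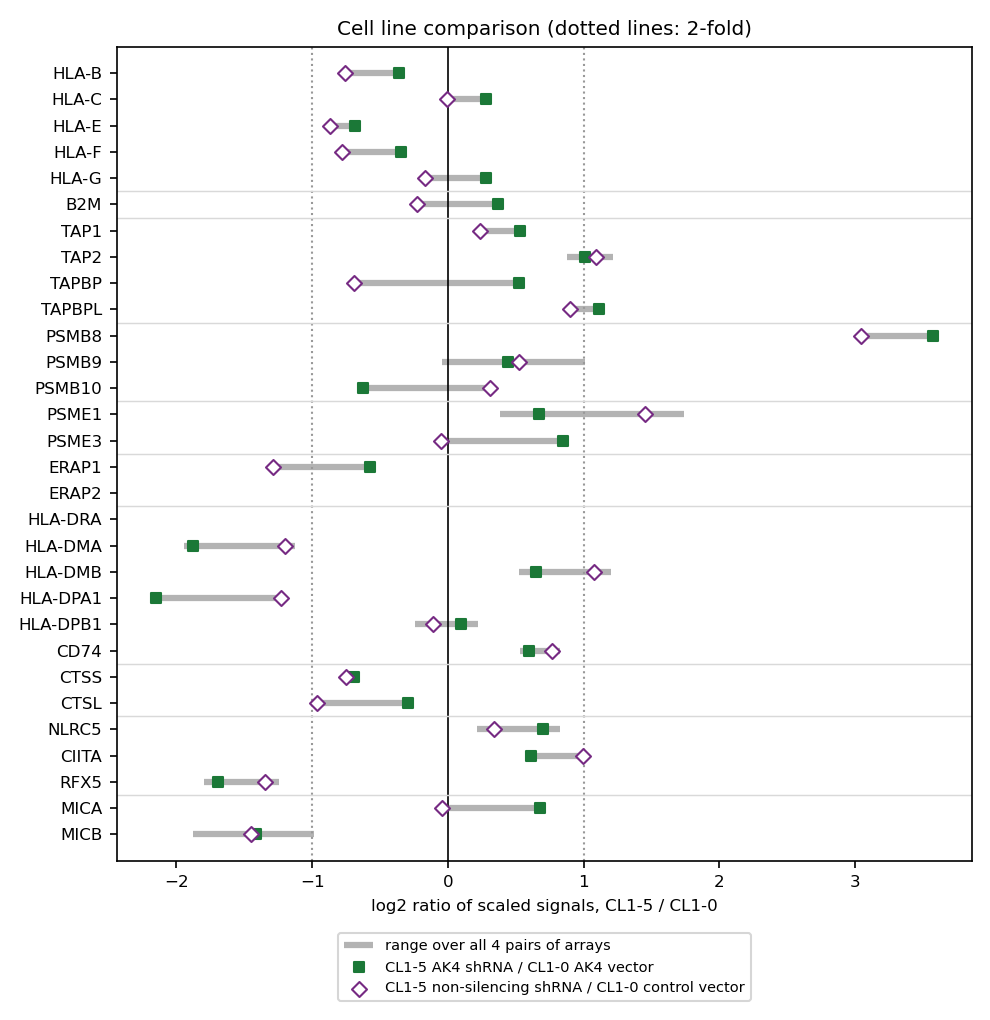
Log2 ratio of scaled signals, CL1-5 over CL1-0, for the 28 measured genes: AK4 shRNA over AK4 vector (squares), non-silencing shRNA over control vector (diamonds) and the range over all 4 pairs of arrays (grey bars), with dotted lines at 2-fold. PSMB8 lies at 3.04 or above and HLA-DMA, HLA-DPA1 and RFX5 below -1 in every pair; ratios of PSMB8, HLA-DPA1 and CTSS, the squares of TAPBPL and the diamonds of CIITA are bounds because 1 array or line is under the floor.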

How the data were processed

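RNA of 4 cultures was hybridised to 1-colour Affymetrix HG-U133 Plus 2.0 arrays, where a probe set is a small group of oligonucleotides. The authors deposited 1 intensity per probe set and array on a linear scale, with no detection calls. MAS5 was used, per the submitters' processing notes, and neither its version nor its role is given in the sources used here. The number of arrays limits the precision.

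Each array was scaled to a common trimmed mean (2% removed at each end, 62 control probe sets left out). A floor was set at the 40th percentile of scaled values (log2 2.79) before log2 was taken, so a ratio with 1 array under the floor is a bound. Of the probe sets, 41097 had 1 gene symbol in the platform annotation, 1801 several and 11777 none. The symbol was taken from RefSeq tables by gene identifier, which was found there for 99.9% of the probe sets with 1 symbol. A gene was read from the probe set with the highest mean log2 level, measured where 1 array of the pair was above the floor, and called at 2-fold, with a log2 ratio of 0.32 as a second rule, in 4 comparisons. Groups came from the labels. Alternatives were quantile and loess scaling (span 0.4), no rescaling, a floor at the 60th percentile, no floor with a pseudocount of 1, the mean of all probe sets, and no probe sets ending in _x_at or _s_at. An alternative counted as moving a value by more than the pooled SD over a gene's probe sets, or a count by more than 1.5 times.

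The text accounts for every listed gene and names other pathway genes past 2-fold (up to 4 each way) plus IRF1, JAK2, SOCS1 and CD274. The genes and lists were chosen with earlier results of these data known. The procedure was tested on simulated data, with changes past 2-fold planted in genes well above the floor. That test does not cover ratios below 2-fold or genes near the floor. Python 3.11.15, NumPy 2.4.6, pandas 2.3.3, SciPy 1.17.1, statsmodels 0.14.6 and matplotlib 3.10.9 were used.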

Additional observations from a re-analysis of the deposited data

How the results depend on the processing

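No paired analysis was possible because each group is 1 array. In the comparisons within a line, the counts past 2-fold did not change with any of the 7 alternatives. The list's median ran from 0.09 to 0.17 in CL1-5. In CL1-0 it ran from -0.08 to -0.01, except without _x_at and _s_at probe sets, where it was 0.18 with 12 of 18 genes above 0. Single genes moved in 7 values, among them TAPBP, which read -0.22 in CL1-0 and 0.05 in CL1-5 by the mean of its probe sets, HLA-DPA1, at 0.41 in CL1-0 by the mean, and ERAP1, at -0.40 in CL1-5 without _x_at and _s_at probe sets. Between the lines the scaling mattered more. The list's median between the control arrays, -0.08 with the scaling used here, was 0.04 under quantile scaling, 0.11 under loess, 0.75 as deposited and 0.26 without _x_at and _s_at probe sets. As deposited, the median of all genes shifted by 0.71 between the control arrays and by 0.75 between the AK4 arrays, and 10 genes of the list were at least 2-fold higher in CL1-5 and 0 lower between the control arrays, against 4 and 5. Between the AK4 arrays they were 16 and 1, against 3 and 4, and the median was 1.21, against 0.32. The 5 lower genes became 3 with the floor at the 60th percentile, 2 by the mean of probe sets and 3 without _x_at and _s_at probe sets, and the 4 genes apart in all pairs became 8 as deposited and 2 under each of these 3 alternatives. ERAP1 turned to 0.22 between the control arrays without _x_at and _s_at probe sets, which leaves another probe set. Of all genes called between the control arrays, 54.6% were higher in CL1-5, against 42.8% under quantile scaling, 43.6% under loess and 90.2% as deposited. The cause of the other differences was not tested. Genes near the floor, such as HLA-DPB1, CD74 and NLRC5, are limited by signal over background.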

Other observations

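Of 60 other genes of the pathway that were listed, 57 were read. In the CL1-5 comparison none of 53 measured reached 2-fold, 5 were higher with AK4 shRNA by a log2 ratio of 0.32 or more, and 3 were lower by as much, beside 6.64% and 5.84% of all genes. The 5 were EP300, PDIA3, CALR, CREBBP and RFXAP, at 0.58, 0.46, 0.39, 0.37 and 0.32. The 3 were CTSH, ULBP3 and NFYA, at -0.78, -0.57 and -0.40. Of 5 chaperones listed, PDIA3 and CALR were thus among the higher genes, and CANX, HSPA5 and ERP44 had log2 ratios of 0.05, 0.04 and 0.07. PDIA3, the disulfide isomerase bound to tapasin, had 808 with AK4 shRNA, against 586 with non-silencing shRNA, and calreticulin (CALR) had 574, against 438. In the CL1-0 comparison 1 of 51 was at least 2-fold higher and 1 lower, beside 3.22% and 1.17% of all genes. RFXAP, a partner of RFX5 in the X-box factor, had 91.0 on the array labelled AK4 vector, against 35.5 on the control vector array, and PVR, a ligand of the receptors DNAM-1 and TIGIT, had 71.1, against 149.

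Between the lines, 11 of 53 of these genes were at least 2-fold higher in CL1-5 and 6 lower between the control arrays, beside 17.1% and 14.2% of all genes. Between the AK4 arrays 11 of 52 were higher and 5 lower, beside 14.7% and 14.8%. CD274, the checkpoint ligand PD-L1, had 112 and 101 in CL1-5 and was under the floor in CL1-0 at 5.07 and 4.51, a log2 ratio of at least 3.86 between the control arrays. The others named by the rule were PROCR at 3.68, SOCS1 at 3.37 or more, since its control vector signal is under the floor, and CTSB at 2.33, and the lowest were IRF2 at -2.14, CTSH at -1.99, CREBBP at -1.78 and HSPA5 at -1.53. SOCS1, the feedback inhibitor of interferon signalling, had 66.5 and 71.6 in CL1-5, against 8.10 and 6.31 in CL1-0. JAK2, a kinase of the interferon-gamma receptor, had 70.7 and 56.9 in CL1-5, against 17.8 and 19.6 in CL1-0. IRF1, a factor that binds the ISRE, had 80.2 and 67.3 in CL1-5, against 31.0 and 28.0 in CL1-0. With AK4 shRNA over non-silencing shRNA, CD274, SOCS1, JAK2 and IRF1 had log2 ratios of 0.15, -0.11, 0.31 and 0.25.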
